A study of Mus musculus with 4 samples.

Results

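The plasminogen activator system was read from 7 genes taken by symbol from a list, which are *Plau*, *Plat*, *Plaur*, *Serpine2*, *Timp1*, *Timp2* and *Timp3*. All 7 were among the 22063 genes of the count table, and all 7 were among the 11727 genes that passed the filter on low counts and were tested. The libraries came from TKPTS cells, a mouse renal proximal tubular epithelial line that the labels call TKPT. Cells labelled WT received a scrambled siRNA (si-NC, replicates 2 and 3), and cells labelled *Itgb6* knockdown received an siRNA against *Itgb6* (si-*Itgb6*, replicates 1 and 3). *Itgb6* encodes the beta chain of integrin αvβ6. Both groups also shared 24 h of hypoxia at 1% O2 and 12 h of reoxygenation, so the comparison addresses the siRNA within injured cells and holds no normoxic or untransfected library. The siRNA was transfected transiently into 1 cell line, and other replicate numbers were not analysed here.

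Plasminogen is an inactive protease of plasma that is cut to plasmin by urokinase (*Plau*) or by tissue plasminogen activator (*Plat*). Urokinase is held on the cell surface by its receptor (*Plaur*), both activators are stopped by serpins such as protease nexin 1 (*Serpine2*), and plasmin dissolves fibrin and can activate matrix metalloproteinases. The TIMP proteins (*Timp1*, *Timp2*, *Timp3*) inhibit those metalloproteinases and not the plasminogen activators, so they sit downstream in the same cascade of matrix breakdown. In the kidney, urokinase is a product of tubular epithelium, and the serpins and TIMPs are known from studies of fibrosis.

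The totals were 15435074 to 17220281 estimated counts per library. *Itgb6* is the gene that the siRNA targets. The si-NC libraries held 285 and 284 of its reads, against 279 and 260 for si-*Itgb6*. The fitted log2 fold change was -0.0051 (95% interval -0.27 to 0.26, adjusted p = 0.991). A log2 change below -0.27 lay outside the interval, so the target's mRNA did not check the labels. The groups are called as labelled. The paper states that the siRNA's efficiency was tested by qPCR and western blot. It reports lower αvβ6 protein in hypoxic cells given the siRNA, which is a measure other than the mRNA of these libraries. Among all genes tested, 4.62% had a Benjamini-Hochberg adjusted p under 0.05 in edgeR's quasi-likelihood test, the call used here. Without si-NC replicate 2, 13 genes passed that threshold in place of 542, so values without that library are given for *Timp3*, *Plau*, *Plaur*, *Timp1* and *Timp2*. Of 8 markers of renal tubular epithelium, 7 were tested and *Krt8* was lower. Of 12 markers of proximal tubule, 5 were at 0 in all libraries (*Slc34a1*, *Slc5a2*, *Slc22a6*, *Slc13a3* and *Miox*). The summed FPKM of the latter list was 11.4 to 13.2 in si-NC and 17.4 to 17.5 in si-*Itgb6*, most of it from *Aqp1*, which was higher. The summed counts of the fibroblast and endothelial lists overlapped between the groups, at 52 to 61 and 54 to 78 for the 6 fibroblast genes and 53 to 74 and 42 to 71 for the 5 endothelial genes. Those of the 6 macrophage genes did not, at 2156.5 and 2437 in si-NC against 1965.4 and 1989.5 in si-*Itgb6*. These sums are not scaled to library size. Nearly all counts of the macrophage list came from *Cd68* and *Csf1r*, while *Adgre1* and *Itgam* had 0 to 2 counts. In CPM (counts scaled to the TMM-normalized library size), *Cd68* had 104.5 and 114 in si-NC against 99.1 and 98.2 in si-*Itgb6*. *Csf1r* had 27.5 and 27.1 CPM against 27.0 and 22.2 CPM, and neither gene was called. In summed FPKM the macrophage list overlapped, at 92.65 and 100 in si-NC against 93.2 and 84.46 in si-*Itgb6*. In that unit *Csf1r* had 11.8 in si-*Itgb6* replicate 1 and 5.56 to 7.08 in the other libraries. The part of these differences in the results below was not tested.

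The cells transcribed both activators, the receptor, the serpin and the 3 inhibitors at very unequal levels. Per length, on the FPKM scale, *Plat* stood far above the others with 444 to 459 FPKM across the libraries, higher than 98.5% of the genes tested. *Timp2* followed with 62.5 to 75.0 FPKM, then *Plau* with 37.7 to 50.3 and *Plaur* with 37.7 to 43.8. *Timp3* had 14.1 to 18.9 FPKM, *Timp1* had 14.3 to 16.7, and *Serpine2* was lowest with 3.76 to 5.22. The mean of *Plat* was 6.60 times that of *Timp2*, while *Plau* and *Plaur* differed by a ratio of 1.02 and *Timp3* and *Timp1* by 1.06. The ranges of those last pairs overlapped, so their order in level was not resolved, whereas the other neighbours in the order did not overlap in any library. In a bulk sample, fewer cells expressing a gene and less RNA per cell cannot be told apart.

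**Figure D1:**
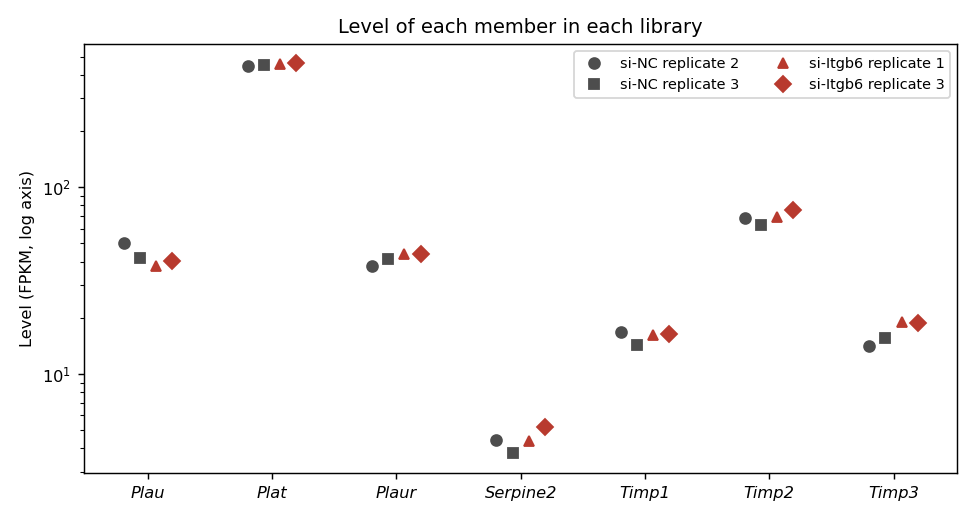
FPKM (log axis) of each member in each of the 4 libraries, with si-NC in grey and si-Itgb6 in red and 1 symbol per library. Plat sits at 444 to 459 FPKM in every library, and Serpine2 is lowest, at 3.76 to 5.22 FPKM.

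*Timp3* was the 1 member called between the groups, and it was higher in the libraries labelled si-*Itgb6*, a call that was lost without si-NC replicate 2 (log2 fold change 0.29, adjusted p = 0.318) and with limma on log2(FPKM + 1) (0.33, adjusted p = 0.187). TIMP-3 is the inhibitor that binds the extracellular matrix, and it blocks ADAM proteases as well as matrix metalloproteinases. It had 66.0 and 73.3 CPM (the count scaled to the TMM-normalized size of its library) in si-NC replicates 2 and 3 and 89.2 and 90.0 CPM in si-*Itgb6* replicates 1 and 3. Both si-*Itgb6* libraries were above both si-NC libraries with an SD of 0.566 CPM between them, against an SD of 5.18 CPM in si-NC. The fitted log2 fold change was 0.36 ± 0.08 (SE; 95% interval 0.21 to 0.52), or 1.28-fold, with an adjusted p of 0.00296 from edgeR's quasi-likelihood test. In FPKM the libraries also kept apart, at 14.1 and 15.6 in si-NC and 18.9 and 18.8 in si-*Itgb6*.

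Thus 1 of 7 members was called higher (0 without si-NC replicate 2) and 0 were called lower, beside 2.11% and 2.52% of all genes tested. At an unadjusted p, 3 of 7 members were under 0.05 (*Timp3*, *Plau* and *Plaur*), beside 18.4% of all genes. By the study's own thresholds, which take p under 0.05 without adjustment together with a 1.2-fold change, 1 member was higher (*Timp3*) and 0 were lower. Beside them, 4.37% of all genes in the present fit were higher and 5.2% lower, or 9.57% in all. The study reports fewer genes in each direction by those thresholds. The groups did not overlap in CPM for 5 members, beside 49.2% of all genes. The median log2 fold change was 0.049 over the members and 0.00017 over all genes.

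**Figure D2:**
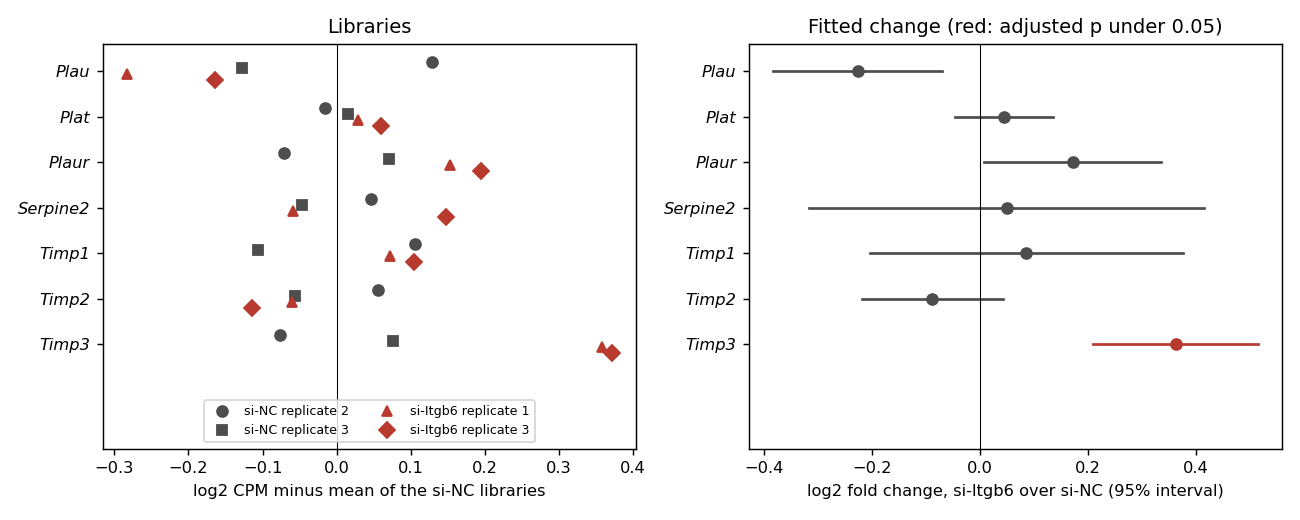
Left, log2 CPM of each library minus the mean of the si-NC libraries; right, the fitted log2 fold change of si-Itgb6 over si-NC with its 95% interval. Timp3, in red on the right, is at 0.36 with both si-Itgb6 libraries beyond both si-NC libraries, and the intervals of Plat, Serpine2, Timp1 and Timp2 cross 0.

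The urokinase gene *Plau* (ENSMUSG00000021822; GRCm38, chromosome 14 from 20836660 to 20843385) had 117 and 98.0 CPM in si-NC replicates 2 and 3 and 88.0 and 95.5 CPM in si-*Itgb6* replicates 1 and 3. The si-*Itgb6* libraries were both below the si-NC libraries, but si-NC replicate 3 lay closer to them than to si-NC replicate 2. On the log2 scale the change was -0.23 ± 0.08 (SE; 95% interval -0.38 to -0.071), a 1.17-fold lower level. Its unadjusted p of 0.00575 became an adjusted p of 0.0824 over all genes in edgeR's quasi-likelihood test, so *Plau* was not called. Its value was -0.095 (adjusted p = 0.802) when si-NC replicate 2 was left out, and -0.28 (adjusted p = 0.0373) when si-*Itgb6* replicate 3 was.

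The other activator gene, *Plat* (ENSMUSG00000031538; chromosome 8 from 22757727 to 22782844), had 18182 and 19696 counts in si-NC and 17794 and 19352 counts in si-*Itgb6*. This was 1115 and 1140 CPM in si-NC against 1150 and 1175 CPM in si-*Itgb6*, with the groups adjacent and not overlapping. Its log2 fold change of 0.044 (95% interval -0.047 to 0.13, adjusted p = 0.658) was estimated more narrowly than that of any other member, and a change beyond 0.13 lay outside its interval.

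*Plaur* (ENSMUSG00000046223; chromosome 7 from 24462484 to 24475968) encodes uPAR, the receptor that is attached to the membrane by a lipid anchor. It had 54.4 and 60.0 CPM in si-NC replicates 2 and 3 and 63.5 and 65.4 CPM in si-*Itgb6* replicates 1 and 3. Receptor and ligand thus lay on opposite sides of their controls, *Plaur* above and *Plau* below, without either passing the adjusted threshold. For *Plaur* the log2 fold change was 0.17 (95% interval 0.0079 to 0.34), with an unadjusted p of 0.0405 and an adjusted p of 0.245 in edgeR's quasi-likelihood test. Without si-NC replicate 2 it was 0.10.

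The serpin gene *Serpine2* (ENSMUSG00000026249; chromosome 1 from 79794197 to 79861180), whose product also inhibits thrombin, had 144 and 143 counts in si-NC and 127 and 156 counts in si-*Itgb6*. The si-*Itgb6* libraries lay on either side of the si-NC libraries, at 8.21 and 9.48 CPM against 8.83 and 8.28 CPM. Its log2 fold change was 0.049 (95% interval -0.32 to 0.41, adjusted p = 0.921), the widest interval of the 7.

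Ratios of counts within a library need no scaling between libraries, and they are set side by side across libraries, not read as levels of one gene over another. The counts of *Plat* were 9.53 and 11.6 times those of *Plau* in si-NC replicates 2 and 3, and 13.1 and 12.3 times in si-*Itgb6* replicates 1 and 3. The ratio of *Plaur* to *Plau* counts was 0.465 and 0.612 in si-NC and 0.722 and 0.684 in si-*Itgb6*. That of *Serpine2* to *Plau* was 0.0755 and 0.0845 in si-NC and 0.0932 and 0.0992 in si-*Itgb6*. In all 3 ratios both si-*Itgb6* libraries were above both si-NC libraries, and since they share *Plau* as denominator they are not separate observations. An exact permutation test of 2 against 2 libraries cannot go below a p of 0.33, and the ratios were given as a description without a test.

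**Figure D3:**
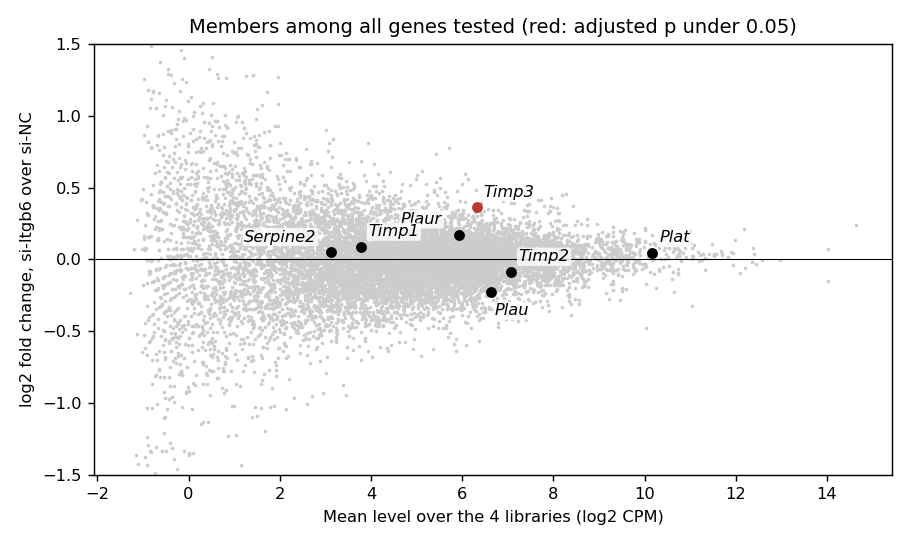
The log2 fold change of si-Itgb6 over si-NC against the mean level (log2 CPM) for the genes tested, with the 7 members marked; 30 genes lie beyond the drawn range. Timp3, in red, is at 0.36, while Plat, Serpine2, Timp1 and Timp2 lie near 0.

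Of the 3 TIMP genes, *Timp3* was called and *Timp1* and *Timp2* were not, and the differences between their changes were not tested. *Timp1* (ENSMUSG00000001131; chromosome X from 20870166 to 20874735), the secreted inhibitor that is often induced in injured tissue, had 14.3 and 12.4 CPM in si-NC and 14.0 and 14.3 CPM in si-*Itgb6*. Its libraries overlapped, and the log2 fold change was 0.086 (95% interval -0.20 to 0.38, adjusted p = 0.800), or 0.19 without si-NC replicate 2. *Timp2* (ENSMUSG00000017466; chromosome 11 from 118301069 to 118355740), which takes part in the activation of pro-MMP2 at the cell surface, had 145 and 134 CPM in si-NC and 134 and 129 CPM in si-*Itgb6*. si-NC replicate 3 and si-*Itgb6* replicate 1 were nearly equal, and the log2 fold change was -0.088 (95% interval -0.22 to 0.042, adjusted p = 0.497), or -0.033 without si-NC replicate 2. *Timp3* (ENSMUSG00000020044; chromosome 10 from 86300372 to 86349506) had 1076 and 1266 counts in si-NC and 1380 and 1481 counts in si-*Itgb6*. In counts, *Timp3* was 0.456 and 0.547 of *Timp2* in si-NC and 0.668 and 0.700 in si-*Itgb6*.

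*Timp3* and *Timp1* lie within the spans of *Syn3* and *Syn1*, synapsin genes on the opposite strand, and *Timp2* shares its span with *Cep295nl*. The exons of *Timp3* overlap those of *Syn3* in GENCODE vM21 (GRCm38), and the libraries held no strand information. *Syn3* had 16 and 22 counts in si-NC and 25 and 19 in si-*Itgb6*. *Syn1* had 10 to 19 counts per library and *Cep295nl* had 11 to 20. The counts of all 7 members were whole numbers in all 4 libraries.

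The promoters of the TIMP genes are shown because they are a family of related inhibitors that holds the called member. They are RefSeq sequences of GRCm38.p6 from 250 bases before to 50 bases after the start, read 5′ to 3′ on the strand of the gene, for *Timp1* (chrX:20869916-20870215, plus strand), *Timp2* (chr11:118355362-118355661, minus strand) and *Timp3* (chr10:86300162-86300461, plus strand). Capitals mark GC boxes (GGGCGG) and AP-1 motifs (TGANTCA) on either strand, and the GC boxes and AP-1 motifs do not overlap each other in these windows.
*Timp1*: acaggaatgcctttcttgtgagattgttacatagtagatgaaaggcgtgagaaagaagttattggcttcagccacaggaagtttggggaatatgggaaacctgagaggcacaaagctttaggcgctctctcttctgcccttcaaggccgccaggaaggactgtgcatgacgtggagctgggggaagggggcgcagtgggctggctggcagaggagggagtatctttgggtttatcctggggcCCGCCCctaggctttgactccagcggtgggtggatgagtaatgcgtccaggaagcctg
*Timp2*: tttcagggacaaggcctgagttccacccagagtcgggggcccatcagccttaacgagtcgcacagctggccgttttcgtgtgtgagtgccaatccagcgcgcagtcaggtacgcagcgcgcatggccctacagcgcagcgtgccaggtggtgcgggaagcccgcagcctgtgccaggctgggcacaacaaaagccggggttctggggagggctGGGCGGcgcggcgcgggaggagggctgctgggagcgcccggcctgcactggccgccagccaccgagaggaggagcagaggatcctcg
*Timp3*: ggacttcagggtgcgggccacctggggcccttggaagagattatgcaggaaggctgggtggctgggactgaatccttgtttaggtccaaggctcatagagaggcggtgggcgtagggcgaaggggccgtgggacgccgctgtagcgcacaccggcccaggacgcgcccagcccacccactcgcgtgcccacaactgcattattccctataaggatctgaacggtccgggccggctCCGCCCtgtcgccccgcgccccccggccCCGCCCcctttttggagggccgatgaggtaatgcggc
*Timp3* held 2 GC boxes, *Timp1* and *Timp2* held 1 each, and none of the 3 held an AP-1 motif in this window. A GC box was in 35.7% and an AP-1 motif in 7.81% of 32851 mouse promoters of this length. The TEAD motif GGAATG, which was in 14.7% of promoters, had 1 match in *Timp1* and 0 in *Timp2* and *Timp3*. The hypoxia response element core, searched as ACGTG or GCGTG and present in 43.8% of promoters, had 2 matches in *Timp1*, 1 in *Timp2* and 1 in *Timp3*. The GC content of the windows was 55.0% for *Timp1*, 68.7% for *Timp2* and 67.0% for *Timp3*. Of the 7 members, 5 were in the promoter table, and *Plaur*, the other member shown here, had an AP-1 motif and 3 GC boxes, of which the last overlaps the one before it by 1 base (chr7:24462233-24462532, plus strand).
*Plaur*: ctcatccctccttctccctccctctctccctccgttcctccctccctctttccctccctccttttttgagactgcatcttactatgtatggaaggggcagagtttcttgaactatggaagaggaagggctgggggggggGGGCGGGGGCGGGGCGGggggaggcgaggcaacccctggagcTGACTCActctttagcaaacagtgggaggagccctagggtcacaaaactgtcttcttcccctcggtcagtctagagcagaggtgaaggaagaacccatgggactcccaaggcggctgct
*Serpine2* held 6 GC boxes and no AP-1 motif. *Plau* and *Plat* were not in the table. These matches describe letters in a window and not binding.

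*Timp2* was the member whose direction depended on the deposited unit. Its counts were lower in si-*Itgb6*, while its FPKM values, 68.3 and 62.5 in si-NC and 69.0 and 75.0 in si-*Itgb6*, were higher. With limma on log2(FPKM + 1) the log2 difference was 0.14 (adjusted p = 0.388), against -0.088 from counts, and neither passed the threshold. The transcript length that links both units, the count divided by the FPKM and the library total, was 2132 and 2148 bases in si-NC replicates 2 and 3. It was 1939 and 1690 bases in si-*Itgb6* replicates 1 and 3, a log2 change of -0.24 in the mean. Of 8858 genes with at least 100 counts in every library, 2.60% had as large a change in this length, in either direction. *Serpine2* had the next largest among the members, with 2009 and 2210 bases in si-NC and 1882 and 1791 bases in si-*Itgb6*. The length was constant at 2342 bases for *Plau*, 2525 for *Plat* and 4722 for *Timp3*, the lengths of their longest protein-coding transcripts in GENCODE vM21, so counts and FPKM described those genes alike.

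**Figure D4:**
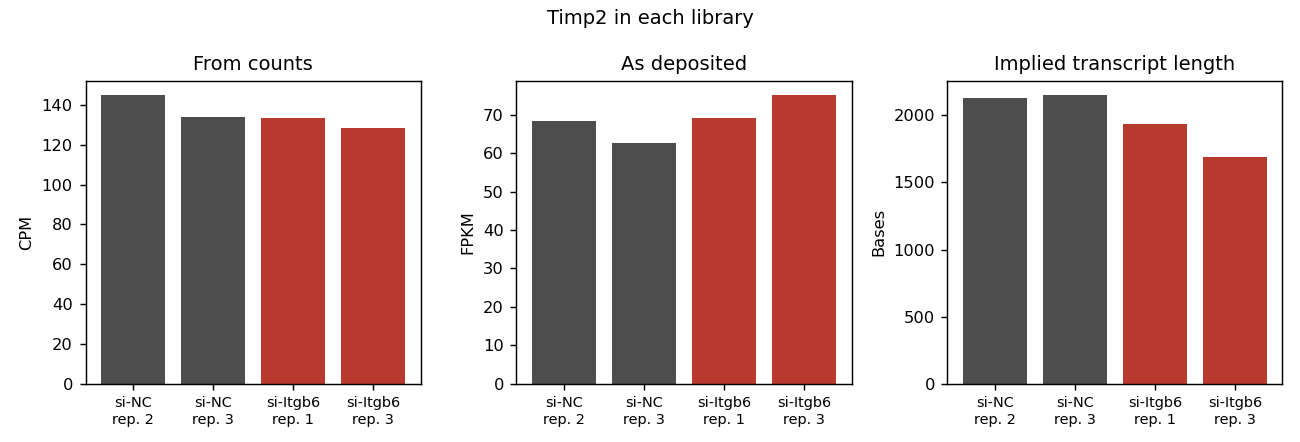
Timp2 in each library as CPM from counts, as the deposited FPKM, and as the transcript length implied by the 2 columns (bases); bars are single libraries, with si-NC in grey and si-Itgb6 in red. CPM is lower and FPKM higher in si-Itgb6, and the implied length falls from 2132 and 2148 bases to 1939 and 1690 bases.

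The annotation lists 2 transcripts of *Timp2*, a long one of 3709 bases and a short one of 718 bases, both protein coding with 5 exons each, which share 531 bases. If the authors' estimates rest on these, the short transcript was 52.7% and 52.2% of *Timp2* molecules in si-NC replicates 2 and 3 and 59.2% and 67.5% in si-*Itgb6* replicates 1 and 3. In reads, the long transcript then had 119 and 111 CPM in si-NC and 104 and 91.7 CPM in si-*Itgb6*. The short one had 25.7 and 23.4 CPM in si-NC and 29.3 and 36.9 CPM in si-*Itgb6*. These shares are a reading of the deposited columns with no error of their own, and they were not tested. Of 527 genes with 1 annotated transcript and at least 100 counts, 97.5% had an implied length within 1% of the GENCODE vM21 length.

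Calls among other genes of the pathway are given by list, here and below. Beside them, 4.62% of all genes tested were called and 9.57% passed the study's thresholds. Plasminogen itself (*Plg*) had 0 counts in 3 libraries and 3 counts in si-*Itgb6* replicate 1, and *Serpinb2* and *Klkb1* had 0 in all. *Serpini1* (neuroserpin) had 8 and 28 counts in si-NC and 21 and 30 in si-*Itgb6*, and was not called (adjusted p = 0.579). The transcripts of the activators and their receptor were thus detected in cells with almost no reads of their substrate, which circulates in plasma. Of 12 plasminogen-binding and clearance receptors, 11 were tested and 0 were called at the adjusted threshold, with a median log2 fold change of -0.057. The highest per length were *Eno1* (mean 2370 FPKM), *Anxa2* (2139 FPKM) and *S100a10* (257 FPKM), surface binders of plasminogen, with log2 fold changes of -0.058, 0.040 and 0.021. By the study's thresholds 1 of these receptors was lower, *Sorl1* at -0.35 (adjusted p = 0.111), a sorting receptor named here after its values were seen.

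Among the proteases that the TIMPs restrain, 7 of 19 matrix metalloproteinases were tested and 0 were called. *Mmp11* had 18.9 and 16.4 CPM in si-NC and 14.1 and 12.8 CPM in si-*Itgb6*, a log2 fold change of -0.39 (adjusted p = 0.0919). *Mmp14*, the membrane-bound enzyme that works with *Timp2* on pro-MMP2, had a log2 fold change of 0.0020, and *Mmp7* (matrilysin) had 17 to 28 counts per library. *Mmp2* had 0 to 7 counts and *Mmp9* 0 to 11. By the study's thresholds *Mmp11* and *Mmp17* were lower, the latter on 4 to 26 counts and named after its values were seen. Of 13 adamalysins and other metalloproteinase inhibitors, 10 were tested and 0 were called. The highest, *Adam9*, *Adam15* and *Adamts1*, had log2 fold changes of -0.15, 0.035 and -0.060, and *Timp4*, the remaining TIMP, had 0 counts in all libraries.

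Of 19 coagulation and membrane serine protease genes, 12 were tested. Of these, 1 was called lower and 0 higher, beside 2.52% and 2.11% of all genes tested. The median log2 fold change of the list was -0.10. The called gene was *F3*, which encodes tissue factor, the cell surface starter of coagulation. Its value without si-NC replicate 2 is not given, so how far the call rests on that library is not shown. It had 148 and 134 CPM in si-NC and 103 and 114 CPM in si-*Itgb6*, or -0.38 ± 0.07 (SE) on the log2 scale, with an adjusted p of 0.000750 from edgeR's quasi-likelihood test. *St14* (matriptase) and *Spint2* (its Kunitz-type inhibitor) had log2 fold changes of -0.15 and -0.13 with adjusted p-values of 0.0924 and 0.123. By the study's thresholds *Spint1*, a related inhibitor named after its values were seen, was also lower, at -0.27 (adjusted p = 0.0626).

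The genes nearest to *Timp3* in their pattern over the 4 libraries were *Il33*, *Enpp4* and *Zfp37*, at Euclidean distances of 0.0266, 0.0305 and 0.0317 between centred log2 CPM profiles. They were the nearest of 8185 genes with a mean of at least 10 CPM, of which 67 lay within 0.1. *Il33*, an alarmin cytokine gene, had 24.2 and 27.2 CPM in si-NC and 33.1 and 33.9 CPM in si-*Itgb6* (log2 fold change 0.38, adjusted p = 0.0323). With 4 libraries such a match is weakly determined.

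*Timp3* kept its call and direction with DESeq2, with edgeR's likelihood ratio and exact tests, with other normalizations and filters, and with the GC content and length trends removed (log2 fold change 0.35, adjusted p = 0.0116). Genes within 1 percentage point of its GC content had a median log2 fold change of 0.032. Beside the call lost without si-NC replicate 2, it was lost with limma on log2(FPKM + 1), a setting in which 0 genes passed the adjusted threshold and 1700 had an unadjusted p under 0.05. Without si-*Itgb6* replicate 1 it was 0.37 and without si-*Itgb6* replicate 3 it was 0.36.

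**Figure D5:**
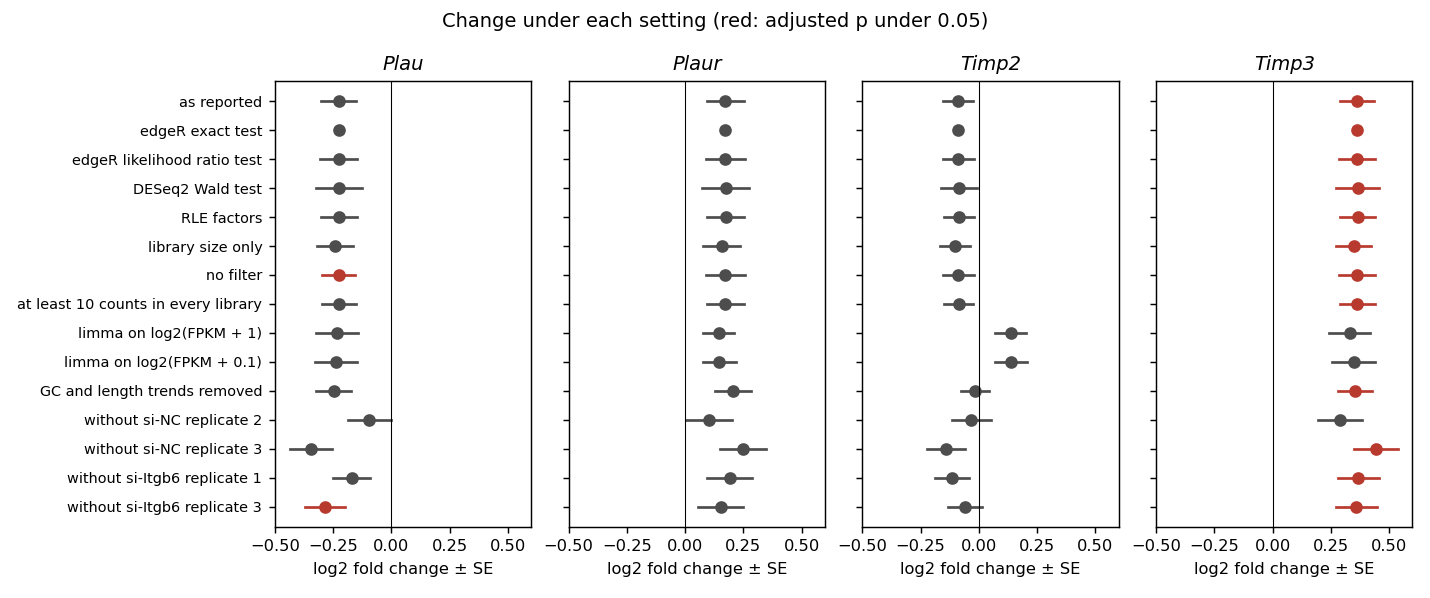
The log2 fold change of si-Itgb6 over si-NC (± SE where the test gives one) of Plau, Plaur, Timp2 and Timp3 under each setting, in red where the adjusted p was under 0.05. Timp3 stays between 0.29 and 0.44 and Plau between -0.35 and -0.095, while Timp2 is above 0 when FPKM values are used.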

How the data were processed

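Polyadenylated RNA of 4 libraries was sequenced in pairs of 150-base reads without strand information. The authors deposited a table of estimated counts, without normalization, and of FPKM values. Per the file headers both come from the same libraries, and the aligner, counter, build and annotation are not given in the sources used here. The study's methods say that the samples for analysis were optimized after clustering, without saying how. The counts were rounded, filtered with filterByExpr (minimum count 10, minimum total 15), normalized by TMM and compared in edgeR (version 4.0.16, under R 4.3.3; the package the study names) by its quasi-likelihood test, with Benjamini-Hochberg adjustment over all 11727 genes tested. A gene was called at an adjusted p under 0.05, in place of the unadjusted threshold of the study, which is given beside it. Standard errors were taken from the fold change and F statistic, and intervals are at 95%. Levels were compared between genes in FPKM, and ratios of counts only between libraries.

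The labels do not say whether replicates were separate cultures, so p-values measure the spread between these libraries, which may be technical. Replicates differed by more than sampling noise (chi-square per gene 3.21 in si-NC and 4.04 in si-*Itgb6*). The common biological coefficient of variation was 0.0551. Counts in the 4 per-sample tables equalled those of the series table. The members and gene lists were chosen with earlier results of these data known. By a fixed rule the text names the members, *Itgb6*, the called genes of each list and, where fewer than 3 were called, its genes of highest mean FPKM up to 3, and the 3 genes nearest to the called member. Genes named for counts at or near 0, or for passing the study's thresholds only, were chosen after their values were seen. Alternatives were the exact and likelihood ratio tests, DESeq2 1.42.0, RLE factors, library size only, other filters, limma 3.58.1 on log2(FPKM + 1), lowess offsets (span 0.3) on GC content and length for 11709 genes, leaving out each library and, added after the data had been seen, log2(FPKM + 0.1). The tests were first tried on simulated counts. Loci and transcripts are those of GENCODE vM21 (GRCm38), which may differ from the authors' annotation. Some results are not reported here.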

Additional observations from a re-analysis of the deposited data

How the results depend on the processing

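No paired analysis was possible because the groups share 1 replicate number, 3. With 2 libraries per group, si-NC replicate 2 weighed most: without it 13 genes were called in all, 0 members were called higher, and *Timp3* had 0.29. Leaving out 1 library at a time, the log2 fold change ranged from 0.29 to 0.44 for *Timp3*, -0.35 to -0.095 for *Plau*, 0.10 to 0.25 for *Plaur*, 0.027 to 0.064 for *Plat*, -0.14 to -0.033 for *Timp2*, -0.057 to 0.15 for *Serpine2*, -0.014 to 0.19 for *Timp1* and -0.10 to 0.091 for *Itgb6*. The sign turned for *Serpine2* without si-*Itgb6* replicate 3 (-0.057), for *Timp1* without si-NC replicate 3 (-0.014), and for *Itgb6* when si-NC replicate 2 (0.038) or, separately, si-*Itgb6* replicate 3 (0.091) was left out. The number of members called higher ranged from 0 to 1 and lower from 0 to 1, and all genes called from 13 to 781, with 222 without si-NC replicate 3. The one remaining library of a group is assumed to vary like the other group. Without a filter *Plau* was called at -0.23 (adjusted p = 0.0361), so that 1 member was lower; the cause was not tested. Limma on FPKM gave 0.14 for *Timp2* with either pseudocount (0.137 and 0.139), 0.33 and 0.35 for *Timp3* (not called), 0 members higher and 0 genes called in all (1700 and 1698 at an unadjusted p under 0.05). For *Timp2* the implied lengths account for the turn by construction. In all, 302 genes were called with DESeq2, 215 after removal of the trends in GC content and length, and 1122 by the study's thresholds. DESeq2 gave no adjusted p for *Serpine2* and *Timp1*. *Plau* also crossed the threshold without si-*Itgb6* replicate 3 (-0.285), as given above. Apart from the changes listed, the values kept their direction and side of the threshold. Low counts limit *Serpine2* and *Timp1*, which have the widest intervals of the members.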

Other observations

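A few genes that these cells otherwise hardly transcribed had reads in si-*Itgb6* replicate 1, and they were picked out after their values were seen. *Col1a1* had 22 counts there and 0 to 2 in the other libraries, *Col3a1* 14 against 0 to 1, *Mmp12* 13 against 0 to 1, *Lyz2* 11 against 0, and *Dcn* 5 against 0 to 1. The log2 fold change of *Timp3* without that library was 0.37, against 0.36 with it.

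*Aqp1*, a water channel of proximal tubule, moved in the same direction as *Timp3*, with 23.7 and 27.6 CPM in si-NC and 38.8 and 38.5 CPM in si-*Itgb6* (log2 fold change 0.59, adjusted p = 0.000617, edgeR's quasi-likelihood test). *Krt8*, a keratin of simple epithelia, had 781 CPM in both si-NC libraries and 685 and 677 CPM in si-*Itgb6* (log2 fold change -0.20, adjusted p = 0.00881). Values without si-NC replicate 2 are not given for *Aqp1*, *Krt8*, *Il33* or *F3*, so how far those calls rest on that library is not shown.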
